A study of Mus musculus with 32 samples.

Results

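Microglia, the resident macrophages of the brain, keep their identity through a small set of transcription factors. The 9 examined here were Spi1, Runx1, Cebpa, Cebpb, Maf, Mef2a, Mef2c, Sall1 and Bhlhe41. All 9 were found among the 18588 genes of the deposited log2 signal table, matched from Entrez numbers to symbols. Their signals were followed in 28 libraries of cells isolated with CD11b MicroBeads from female mice. The rTg4510 group carried human 4-repeat tau with the P301L mutation behind a tetracycline-responsive element, together with a CaMKIIα-driven tetracycline transactivator that restricts tau to forebrain neurons. The WT group, labelled 129/FVB F1, carried no transgene. Both genotypes were sampled at 2, 4, 6 and 8 months, with 4 libraries per genotype at 2 and 6 months and 3 at 4 and 8 months, and each library pooled the forebrains of 8 to 10 mice. The study's methods call the libraries of a group biological replicates, and the tests measure the spread between these pools. In a bulk sample a change in the cells that make a transcript and a change in transcript per cell cannot be told apart.

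As background, PU.1, the product of Spi1, is the ETS factor that opens myeloid enhancers and is required for microglia to form. RUNX1 and the C/EBP proteins act beside it: RUNX1 is needed in the embryonic progenitors, C/EBPα programmes the myeloid lineage, and C/EBPβ is induced in inflamed macrophages, where it drives acute-phase and cytokine genes. MAF, the MEF2 proteins and the zinc finger protein SALL1 shape the later, tissue-specific state; SALL1 is largely restricted to microglia among macrophages and represses their inflammatory genes. Bhlhe41, with its paralog Bhlhe40, encodes a repressor that binds E-boxes.

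The libraries of a group resembled each other closely, with a Pearson r of 0.936 to 0.966 across genes. Deposited values were centred on a common median of 5.63 and carried no read totals, so the depth of each library cannot be read from them. Not scaled by length, all 9 factors lay high in the table, from the 82.7th percentile of mean signal for Bhlhe41 to the 99.8th for Maf. The authors' signals come from a robust model over exons with no stated length scaling. Levels are therefore compared mainly between libraries, and a gene's percentile or its place beside the median is only rough. The 7 microglia markers counted, among them Cx3cr1, P2ry12 and Tmem119, were all present. The log2 of their summed linear signal, to which the strongest genes add most, was 14.7 to 14.9 in WT libraries at 6 months. In rTg4510 libraries it was 14.2 to 14.4, and 5 of the 7 were called lower and 1 higher. Of the other marker lists, neutrophil genes moved most: 7 of 8 fell at 6 months and 7 of 8 at 8 months. At 6 months, 2 of 8 border macrophage, 3 of 6 monocyte, 2 of 6 astrocyte, 3 of 6 endothelial, 2 of 3 neuronal, 0 of 6 oligodendrocyte, 0 of 4 B cell and 0 of 3 T cell markers were lower, while 2 monocyte, 1 astrocyte and 1 endothelial marker were higher. Of all genes, 19.1% were called higher and 14.9% lower at 6 months, and 9.78% lower at 8 months. The part of other cells in the results below was not tested.

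The factors split by genotype. Maf was called lower in rTg4510 microglia at each age and Sall1 from 4 months on. From 4 months their log2 differences were -0.92 to -0.73. Mef2a was called lower by less from 4 months on. Runx1, Cebpa and Cebpb were called higher at 6 months and Runx1 also at 8 months, while Mef2c and Bhlhe41 passed the test at no age. At a false discovery rate (FDR) below 0.05, limma with Benjamini-Hochberg adjustment over all genes called 0 factors higher and 1 lower at 2 months, 0 and 3 at 4 months, 3 and 3 at 6 months, and 1 and 3 at 8 months. Of all genes tested, 4.76% were called higher and 1.27% lower at 2 months, 14.1% and 9.1% at 4 months, 19.1% and 14.9% at 6 months, and 16% and 9.78% at 8 months. With a fold change above 1.5 required as well, 0, 2, 3 and 2 of the 9 factors were called at 2, 4, 6 and 8 months, beside 1.98%, 13.8%, 19.8% and 15.9% of all genes. The median log2 difference of the 9 factors was -0.019, -0.10, 0.13 and 0.20 at these ages, against 0.014, -0.037, -0.035 and -0.014 over all genes.

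**Figure D1:**
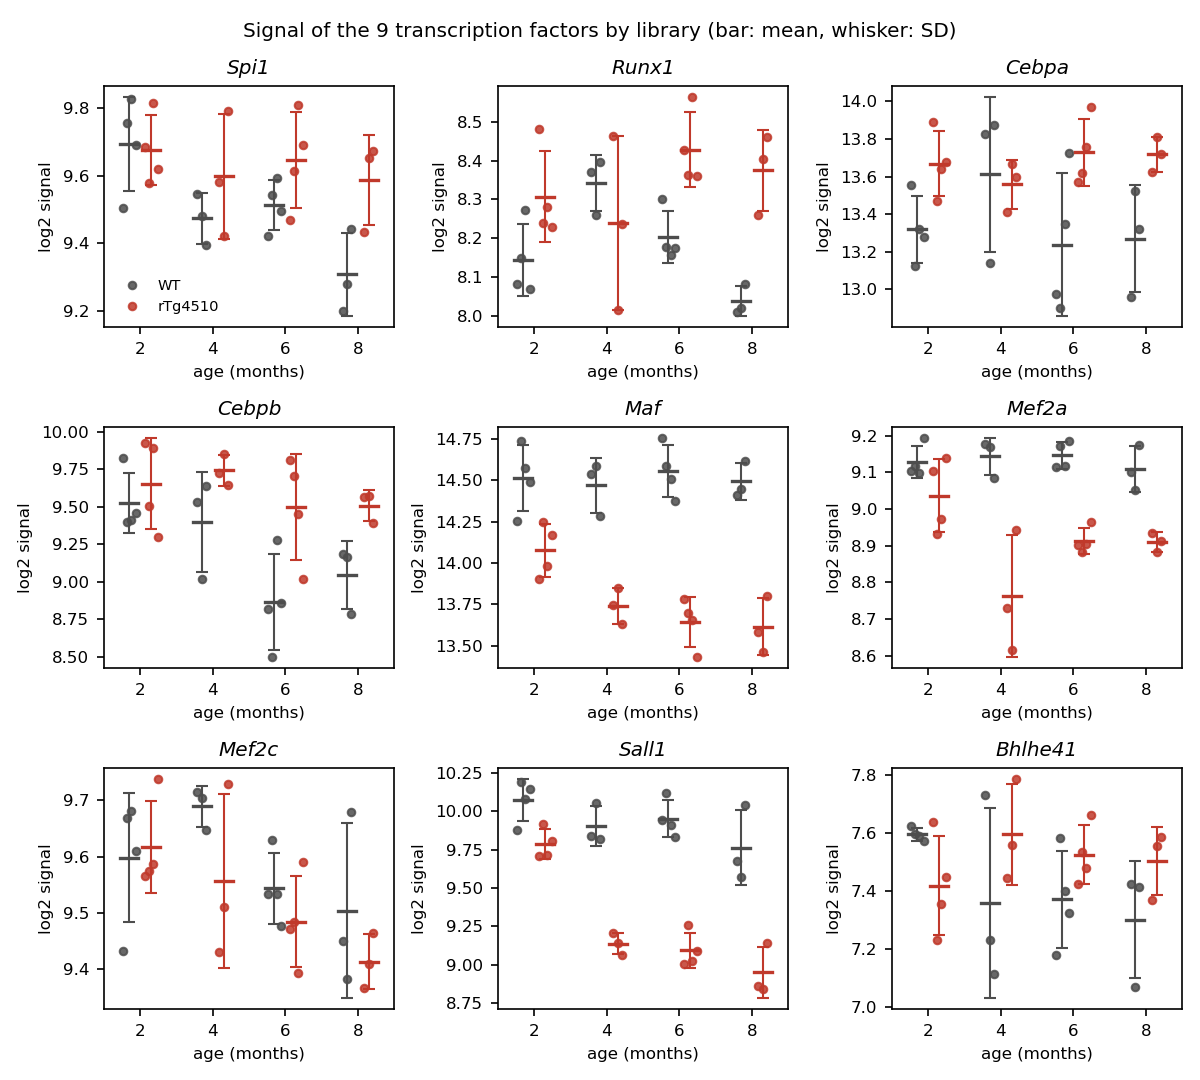
Log2 signal (y axis) of each of the 9 factors against age in months (x axis). Points are the 28 kept libraries, bars the group means and whiskers the SD, with WT in grey and rTg4510 in red. For Maf no rTg4510 library reached the lowest WT library, and for Sall1 the genotypes separated fully from 4 months on.

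MAF is a large basic leucine zipper protein of mature tissue macrophages. The gene (Entrez 17132) lies on chromosome 8 at 115703253 to 115706894 of GRCm38.p6. Maf measured 14.26, 14.74, 14.57 and 14.49 in the WT libraries at 2 months and 13.90, 14.25, 13.98 and 14.17 in the rTg4510 libraries. At 4 months the values were 14.54, 14.59 and 14.28 in WT and 13.75, 13.85 and 13.63 in rTg4510. The genotypes did not overlap at either age. At 6 months WT libraries measured 14.76, 14.59, 14.51 and 14.38 and rTg4510 libraries 13.79, 13.70, 13.65 and 13.43. At 8 months WT libraries measured 14.41, 14.45 and 14.62 and rTg4510 libraries 13.58, 13.46 and 13.80. Over all ages the highest of the 14 rTg4510 libraries was 14.25 and the lowest of the 14 WT libraries 14.26. rTg4510 minus WT, Maf differed by -0.44 (SE 0.112, FDR 0.0195) at 2 months, -0.73 (SE 0.129, FDR 0.000214) at 4 months, -0.92 (SE 0.112, FDR 1.26e-06) at 6 months and -0.88 (SE 0.129, FDR 1.97e-05) at 8 months. These are signals 1.36-, 1.66-, 1.89- and 1.84-fold lower. The 2-month call was lost without WT replicate 2 (-0.36, FDR 0.0881) or 3 (-0.42, FDR 0.0595), or rTg4510 replicate 1 (-0.38, FDR 0.0814) or 3 (-0.41, FDR 0.0668), and with all 32 libraries (FDR 0.115) or the 2-month groups alone (FDR 0.171).

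Ordered by mean, the 4 WT groups of Maf followed each other from 14.56 at 6 months to 14.47 at 4 months with overlapping libraries. The rTg4510 group at 2 months stood apart below them at 14.08, and the rTg4510 groups at 4, 6 and 8 months came last, at 13.74, 13.64 and 13.62, overlapping among themselves. Border macrophages also use MAF, and their 8 markers were measured in the same libraries. At 4 months the log2 of their summed linear signal ranged from 10.6 to 11.4 in WT libraries. In rTg4510 libraries it ranged from 10.3 to 10.5, without overlap. It ranged from 10.9 to 11.1 against 10.6 to 10.9 at 2 months, from 10.6 to 11.1 against 10.4 to 10.7 at 6 months and from 10.6 to 11.4 against 10.6 to 10.8 at 8 months, with overlap at each of these 3 ages. Of the 8 markers 2 were called lower at 6 months, beside 14.9% of all genes, and none was called at 2, 4 or 8 months. Their part in the Maf result was not tested.

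SALL1 is the zinc finger repressor that marks microglia among macrophages. Sall1 (Entrez 58198) lies on the minus strand of chromosome 8 at 89027242 to 89044162. RefSeq (GRCm38.p6) gives 3 start windows for it, and the 250 bases before the outermost one are shown because Sall1 and Maf had the 2 largest falls among the factors.
Sall1, chr8:89044163-89044412, minus strand: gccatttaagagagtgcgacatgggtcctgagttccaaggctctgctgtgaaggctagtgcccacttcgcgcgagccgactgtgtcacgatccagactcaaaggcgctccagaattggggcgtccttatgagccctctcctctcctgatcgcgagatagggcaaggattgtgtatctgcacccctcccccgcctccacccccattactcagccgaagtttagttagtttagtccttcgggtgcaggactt
No binding or chromatin was measured in these samples, so the sequence is context only. At 2 months Sall1 measured 9.88, 10.19, 10.08 and 10.15 in WT and 9.71, 9.92, 9.72 and 9.81 in rTg4510 libraries, which overlapped. At 4 months the WT values were 9.84, 10.06 and 9.82 and the rTg4510 values 9.21, 9.14 and 9.07. At 6 months they were 9.94, 10.12, 9.91 and 9.83 against 9.004, 9.26, 9.03 and 9.09. At 8 months they were 9.68, 9.57 and 10.04 against 8.86, 8.84 and 9.14. From 4 months on each rTg4510 library was below each WT library of its age. The log2 difference was -0.29 (SE 0.0992, FDR 0.11) at 2 months, which missed the threshold, and it passed without WT replicate 1 (-0.35, FDR 0.0475). It was -0.77 (SE 0.115, FDR 2.78e-05), -0.86 (SE 0.0992, FDR 5.52e-07) and -0.81 (SE 0.115, FDR 1.09e-05) at 4, 6 and 8 months, or 1.70-, 1.81- and 1.76-fold lower. Quantile normalization called the 2-month difference (-0.44, FDR 0.0246), and the 8-month call was lost in a fit of the 8-month groups alone (FDR 0.0602).

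The widening of the Sall1 difference was tested directly. From 2 to 8 months the genotype difference changed by -0.53 (SE 0.151, FDR 0.0292), a contrast in which 9.76% of all genes were called. That call was lost in 6 of the 28 fits that left out 1 library: without rTg4510 replicates 2 (-0.48, FDR 0.0647) and 4 (-0.52, FDR 0.0513) or WT replicate 1 (-0.46, FDR 0.063) at 2 months, and without rTg4510 replicates 1 (-0.48, FDR 0.0777) and 2 (-0.48, FDR 0.091) or WT replicate 3 (-0.39, FDR 0.102) at 8 months. It was also lost with all 32 libraries (-0.60, FDR 0.334). From 2 to 4 months the difference widened by -0.48 (SE 0.151, FDR 0.0571), which missed the threshold, and passed it without WT replicate 2 (FDR 0.0466) or 3 (FDR 0.0275) or rTg4510 replicate 3 (FDR 0.0473) of 8 months; 7.33% of all genes passed there. For Maf the widening from 2 to 8 months was -0.44 (SE 0.171, FDR 0.124), with a 95% interval of -0.80 to -0.082. No factor was called between 4 and 6 months or between 6 and 8 months, where 0.172% and 0% of all genes were called. At an unadjusted p below 0.05 the counts of factors in these last comparisons were 1 and 0.

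**Figure D2:**
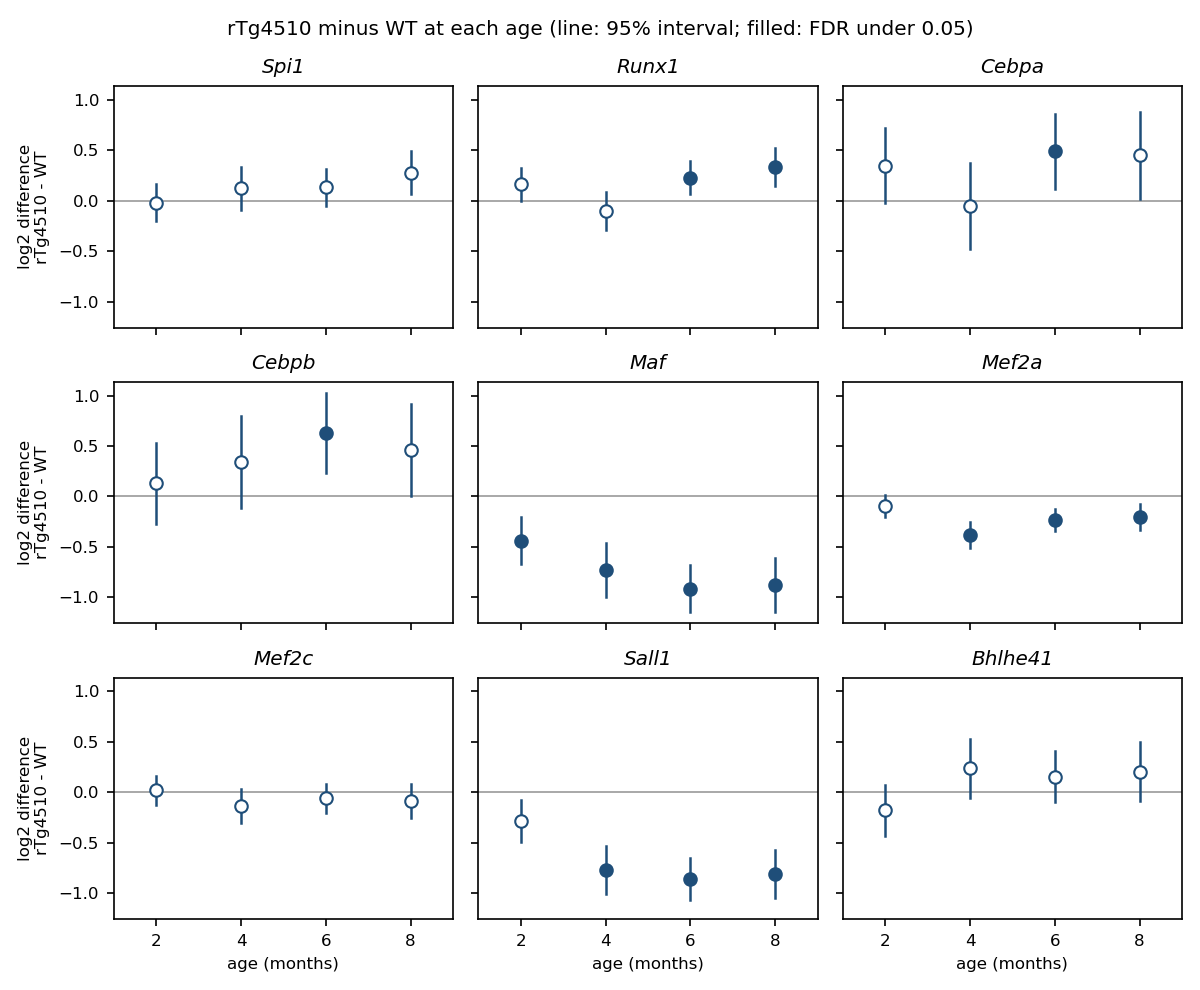
Log2 difference rTg4510 minus WT (y axis) against age in months (x axis) for the 9 factors, with the estimate as a point and its 95% interval as a line. Filled points passed an FDR of 0.05. Maf, Sall1 and Mef2a lie below 0 at each age, with filled points for Maf at each age and for Sall1 and Mef2a from 4 months on. Runx1, Cebpa and Cebpb have filled points above 0 at 6 months, and Runx1 also at 8 months.

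MEF2A and MEF2C are MADS-box factors with a shared DNA motif. Mef2a (Entrez 17258, chromosome 7 at 67231163 to 67376456) was steady in WT libraries, from 9.05 to 9.19 over all 14. At 4 months it measured 9.18, 9.17 and 9.09 in WT and 8.73, 8.61 and 8.94 in rTg4510. At 6 months it measured 9.11, 9.17, 9.12 and 9.18 against 8.90, 8.88, 8.90 and 8.96, and at 8 months 9.10, 9.05 and 9.18 against 8.94, 8.88 and 8.91. The genotypes did not overlap at these ages, whereas at 2 months they did. Its log2 difference was -0.091 (SE 0.0532, FDR 0.433), -0.38 (SE 0.0614, FDR 7.08e-05), -0.23 (SE 0.0532, FDR 0.00161) and -0.20 (SE 0.0614, FDR 0.0195) at 2, 4, 6 and 8 months, so that even the largest was 1.30-fold. At 8 months the call was lost without rTg4510 replicate 2 (-0.19, FDR 0.0682) or WT replicate 3 (-0.17, FDR 0.0904), and it was also lost in fits of the groups of 1 age alone at 4 months (FDR 0.0997) and at 8 months (FDR 0.0512). The change in the difference from 2 to 4 months was -0.29 (SE 0.0812, FDR 0.0327). Leaving out any of 9 libraries ended that call: WT replicate 1, 2 or 3 or rTg4510 replicate 1 or 4 at 2 months, or WT replicate 1 or 2 or rTg4510 replicate 1 or 2 at 4 months, with values of -0.22 to -0.29 and FDRs of 0.0502 to 0.107.

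Mef2c (Entrez 17260) ranged from 9.38 to 9.72 in WT and from 9.37 to 9.74 in rTg4510 libraries, nearly the same span. Its log2 difference was 0.018, -0.13, -0.059 and -0.091 at 2, 4, 6 and 8 months, with FDRs of 0.949, 0.264, 0.548 and 0.457 and a 95% interval at 6 months of -0.20 to 0.086. The 2-month difference was -0.022 without rTg4510 replicate 4 and -0.037 without WT replicate 1. Under quantile normalization Mef2c was called lower at 4, 6 and 8 months (-0.35, -0.29 and -0.31). A direct comparison of the paralogs, added after the values were seen, subtracted the Mef2c difference from the Mef2a difference within each age. It gave -0.11, -0.25, -0.17 and -0.11 at the 4 ages and -0.16 on average (exact permutation of genotype labels within ages, 1960000 arrangements, two-sided p = 0.000115, adjusted over 2 pairs p = 0.00023). The test is of the mean over ages, and no age was tested alone.

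Of the factors called higher in rTg4510, RUNX1 is the partner of PU.1 at many myeloid enhancers. Runx1 (Entrez 12394, minus strand of chromosome 16 at 92601466 to 92826074) is read from a proximal and a distal promoter. The distal one is shown, with the E-box CACGTG and 2 copies of the RUNX core in capitals, since Runx1 was called higher and this window holds the core of its own family.
Runx1 distal, chr16:92826075-92826324, minus strand, before the start: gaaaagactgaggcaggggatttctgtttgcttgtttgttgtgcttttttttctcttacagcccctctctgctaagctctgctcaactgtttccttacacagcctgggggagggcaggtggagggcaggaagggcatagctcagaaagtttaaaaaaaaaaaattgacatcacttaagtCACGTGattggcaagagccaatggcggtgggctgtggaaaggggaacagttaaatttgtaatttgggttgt
Runx1 distal, chr16:92826025-92826050, minus strand, last 26 bases of the window: aacaACCACAgaACCACAagttgggt
The RUNX core TGTGGT, here on the reverse strand, was found in 16.8% of all 32851 RefSeq windows of 300 bases, on either strand, and CACGTG in 7.15%, so both are common. Runx1 measured 8.30, 8.18, 8.16 and 8.17 in WT and 8.43, 8.36, 8.56 and 8.36 in rTg4510 libraries at 6 months, and 8.01, 8.02 and 8.08 against 8.26, 8.41 and 8.46 at 8 months. The groups did not overlap at these ages. At 2 months they did, with 8.07 to 8.27 in WT and 8.23 to 8.48 in rTg4510, and at 4 months the rTg4510 libraries spread from 8.02 to 8.46 around a WT range of 8.26 to 8.40. rTg4510 libraries differed from WT by 0.16 (FDR 0.296), -0.10 (FDR 0.46), 0.23 (SE 0.0783, FDR 0.0297) and 0.34 (SE 0.0904, FDR 0.00783) at the 4 ages, or 1.17-fold at 6 and 1.26-fold at 8 months. The 6-month call was lost without WT replicate 2, 3 or 4 or rTg4510 replicate 1 or 3, with values of 0.18 to 0.23 and FDRs of 0.0523 to 0.108. The negative value at 4 months became 0.0083 without rTg4510 replicate 2. Quantile normalization ended both calls (0.092, FDR 0.396 at 6 months and 0.23, FDR 0.0631 at 8 months), as did the use of all 32 libraries (FDR 0.413 and 0.169). The trimmed-mean centring ended the 6-month call alone (0.17, FDR 0.0899).

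The C/EBP factors varied most between libraries. The Cebpb group means at 2, 4, 6 and 8 months were 9.53, 9.40, 8.86 and 9.05 in WT. In rTg4510 they were 9.65, 9.74, 9.50 and 9.51. Cebpb (Entrez 12608, chromosome 2 at 167688915 to 167690432) measured 8.82, 8.50, 9.28 and 8.86 in WT libraries at 6 months and 9.81, 9.70, 9.45 and 9.02 in rTg4510 libraries. The genotypes overlapped through rTg4510 replicate 4 and WT replicate 3. The difference of log2 signal was 0.63 (SE 0.19, FDR 0.0137, 1.55-fold) and was lost without rTg4510 replicate 1 (0.53, FDR 0.0523) or WT replicate 2 (0.51, FDR 0.0583), under quantile normalization (0.44, FDR 0.0916), with all 32 libraries (FDR 0.344) and in a fit of the 6-month groups alone (FDR 0.104). At 8 months the values were 9.19, 9.17 and 8.79 against 9.56, 9.57 and 9.39, with no overlap, yet the difference of 0.46 (SE 0.22, FDR 0.138) missed the threshold. At 2 and 4 months it was 0.13 (FDR 0.836) and 0.34 (FDR 0.293); at 4 months the libraries, 9.02 to 9.64 in WT and 9.65 to 9.85 in rTg4510, did not overlap.

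Cebpa (Entrez 12606, chromosome 7 at 35119293 to 35121928) measured 12.97, 12.90, 13.35 and 13.73 in WT and 13.57, 13.62, 13.75 and 13.97 in rTg4510 libraries at 6 months. WT replicate 4 lay within the rTg4510 range. The difference of 0.49 (SE 0.178, FDR 0.0379, 1.40-fold) was lost without WT replicate 1 (0.40, FDR 0.121) or 2 (0.38, FDR 0.134) or rTg4510 replicate 3 (0.48, FDR 0.0731) or 4 (0.41, FDR 0.115). Under quantile normalization it was 0.060 (FDR 0.808), and 3 other alternatives ended the call as well, with FDRs of 0.0581 to 0.139. At 8 months WT libraries ranged from 12.96 to 13.52 and rTg4510 libraries from 13.62 to 13.81, a difference of 0.45 (SE 0.205, FDR 0.121). At 2 and 4 months the differences were 0.35 (FDR 0.345) and -0.054 (FDR 0.892), the latter with WT libraries from 13.14 to 13.87; it became 0.053 and 0.077 without WT replicate 1 and 4 and 0.020 without rTg4510 replicate 1. Neutrophils also carry both C/EBP factors. At 6 months the log2 of the summed linear signal of the 8 neutrophil markers was 9.09 to 10.3 in WT libraries. In rTg4510 libraries it was 7.49 to 8.21. The part of neutrophils in the Cebpa and Cebpb values was not tested. Means of the single neutrophil markers over the kept libraries ran from 2.99 to 7.27, beside the common median of 5.63. The Cebpa difference exceeded the Cebpb difference by 0.22 at 2 months and was below it by -0.40, -0.14 and -0.013 later, on average -0.083 (exact permutation within ages, two-sided p = 0.468, adjusted p = 0.468).

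Spi1 (Entrez 20375, chromosome 2 at 91082374 to 91115759), which encodes PU.1, moved little. It measured 9.20, 9.28 and 9.44 in WT and 9.43, 9.65 and 9.67 in rTg4510 libraries at 8 months, where rTg4510 replicate 1 lay just below the highest WT library. The log2 difference was 0.28 (SE 0.102, FDR 0.0504, 1.21-fold), a miss of the threshold by little. It passed with same-numbered libraries as a block (FDR 0.0366), with moderated variance (FDR 0.0444) and with genes of low signal left out (FDR 0.0434). It also passed without WT replicate 3 (0.35, FDR 0.0311) or rTg4510 replicate 1 (0.36, FDR 0.024) of that age, and without any of 7 libraries of other ages, which enter only through the shared variance: WT replicate 1 or 3 and rTg4510 replicate 3 of 2 months, rTg4510 replicates 2 and 4 of 4 months, and rTg4510 replicates 1 and 3 of 6 months (0.28, FDR 0.0361 to 0.0491). At 2, 4 and 6 months the differences were -0.019 (FDR 0.96), 0.12 (FDR 0.431) and 0.13 (FDR 0.267). The 2-month value was 0.013 without rTg4510 replicate 2 and 0.0016 and 0.025 without WT replicate 2 and 3. Quantile normalization turned the 4- and 6-month values to -0.098 and -0.098.

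BHLHE41 is the E-box repressor among the 9. Bhlhe41 (Entrez 79362, minus strand of chromosome 6 at 145858243 to 145865420) carries an E-box of the kind its product binds in its own RefSeq window, shown in capitals, though its signal passed the test at no age.
Bhlhe41, chr6:145865421-145865670, minus strand: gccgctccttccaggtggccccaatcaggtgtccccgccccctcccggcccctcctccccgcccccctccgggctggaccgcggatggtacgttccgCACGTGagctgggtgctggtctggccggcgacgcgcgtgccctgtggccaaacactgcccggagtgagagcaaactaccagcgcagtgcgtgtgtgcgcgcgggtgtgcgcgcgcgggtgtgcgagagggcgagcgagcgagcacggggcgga
It ranged from 7.07 to 7.73 in WT and from 7.23 to 7.79 in rTg4510 libraries. The log2 difference was -0.18, 0.24, 0.15 and 0.20 at 2, 4, 6 and 8 months, with FDRs of 0.539, 0.253, 0.354 and 0.329. WT libraries at 4 months were spread widely (7.11, 7.23 and 7.73), and without WT replicate 1, the highest, the 4-month difference was 0.42 (FDR 0.0245). In the 12 windows of the 7 members that have one, the PU.1 motif GAGGAAGT, the C/EBP motif TTGCGCAA, the MEF2 motif CTATTTATA and the MAF site core TGCTGAC were not found; these occur in 3.2%, 0.183%, 0.429% and 4.67% of all windows. Windows of Spi1 and Maf were not used here.

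Counted by libraries that do not overlap between the genotypes, 1 factor separated at 2 months (Maf, lower), 4 at 4 months, 4 at 6 months and 6 at 8 months. At 4 and 6 months 3 of these were lower (Maf, Mef2a and Sall1) and 1 higher (Cebpb at 4 and Runx1 at 6 months), and at 8 months 3 were lower and 3 higher (Runx1, Cebpa and Cebpb). Of all genes, 11%, 36.6%, 32.8% and 36.7% separated at 2, 4, 6 and 8 months.

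Age was examined within each genotype. In WT, Spi1 fell from 9.69 ± 0.139 (SD, n = 4) at 2 months to 9.31 ± 0.123 (SD, n = 3) at 8 months, by 0.39 on the log2 scale (SE 0.0955, FDR 0.0258), and the libraries did not overlap. Between these ages the WT libraries of Cebpb (-0.48, FDR 0.202) and Bhlhe41 (-0.30, FDR 0.222) did not overlap either, but neither was called. How many of all genes separated between these ages was not counted. Spi1 was the 1 factor of 9 called there, beside 4.21% of all genes. The call was lost without WT replicate 2 (-0.37, FDR 0.0661), 3 (-0.34, FDR 0.0806) or 4 (-0.39, FDR 0.0532) of 2 months or replicate 1 (-0.33, FDR 0.13) or 2 (-0.37, FDR 0.0889) of 8 months, and with all 32 libraries (-0.25, FDR 0.751). Between neighbouring ages WT called no factor, with 0.0861%, 0.113% and 0% of all genes called from 2 to 4, 4 to 6 and 6 to 8 months; 2, 1 and 1 factors had an unadjusted p below 0.05.

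In rTg4510 microglia, Sall1 fell from 9.79 ± 0.0996 (SD, n = 4) at 2 months to 9.14 ± 0.0708 (SD, n = 3) at 4 months, by 0.65 (SE 0.107, FDR 0.00024), and Mef2a fell by 0.27 (SE 0.0574, FDR 0.00222). Of all genes 15.2% were called in that step. The next steps, from 4 to 6 and 6 to 8 months, called none of the 9, beside 1.73% and 0.00538% of all genes, and 2 and 0 factors had an unadjusted p below 0.05. From 2 to 8 months Sall1 fell by 0.84 (SE 0.107, FDR 6.62e-06) and Maf by 0.46 (SE 0.121, FDR 0.00854), where 21.7% of all genes were called; the Maf call was lost without rTg4510 replicate 2 of 8 months (-0.38, FDR 0.0622) and with all 32 libraries (-0.40, FDR 0.0527). The same 2- to 8-month difference in WT was -0.31 (FDR 0.107) for Sall1 and -0.021 (FDR 0.949) for Maf. Between 2 and 8 months the rTg4510 libraries of Sall1, Maf and Mef2c (-0.20, FDR 0.0606) did not overlap, and Mef2c was not called. The share of all genes that separated was not counted there either.

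Across the 28 libraries Maf and Sall1 tracked each other, with a Pearson r of 0.921, and after subtraction of the group means r was 0.647. Mef2a had an r of 0.746 with Maf and 0.782 with Sall1, but within groups -0.18 and 0.072. Cebpa ran opposite to Maf (r -0.67, within groups -0.60) and to Sall1 (r -0.55, within groups -0.52). Cebpb ran opposite to Sall1 within groups (-0.57) and to Mef2c (-0.60). These values describe the libraries, in which all genes share the same RNA and scaling.

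**Figure D3:**
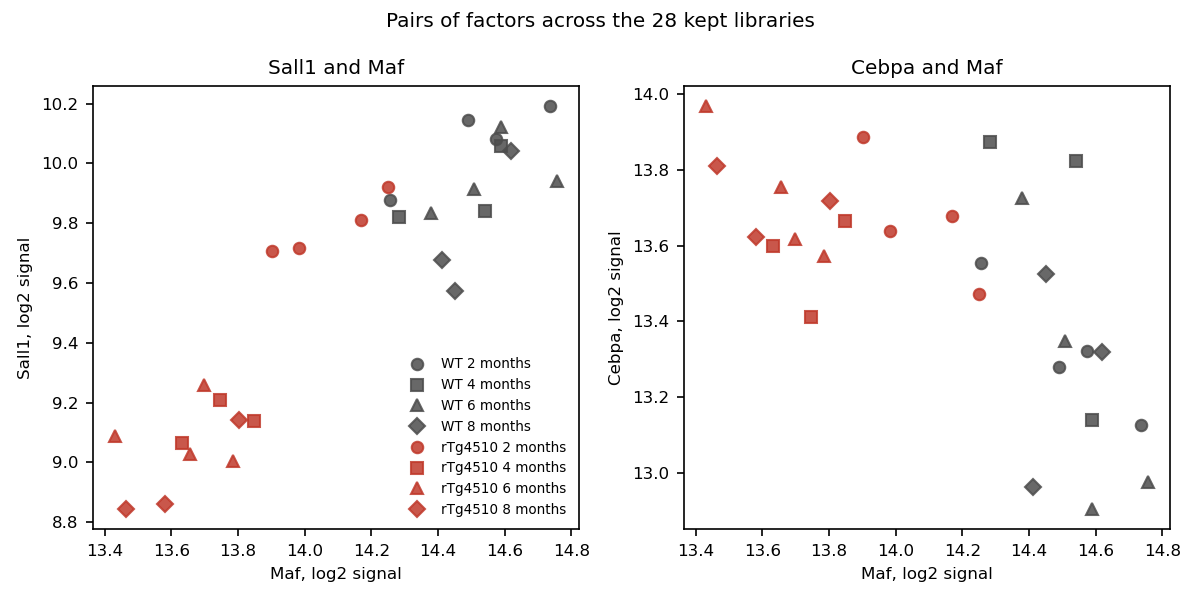
Log2 signal of Sall1 (left, y axis) and Cebpa (right, y axis) against that of Maf (x axis) in the 28 kept libraries, 1 point each, with WT in grey, rTg4510 in red and age by symbol. Sall1 and Maf fall on 1 band with r = 0.921, and Cebpa runs the other way with r = -0.67.

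Over the same 28 libraries, the genes with a pattern most like that of Sall1 were Trp53cor1, a long noncoding RNA induced by p53 (r 0.979), Gm3667 (0.975) and Gm2897 (0.973), and the most opposite was Cxcl16, a chemokine (r -0.97). For Maf they were Gm17048 (0.968), Gm2237 (0.964) and Gm17046 (0.962), and the most opposite was Sqstm1, the autophagy receptor p62 (r -0.97). Whether reads shared by copies of such Gm loci were split is not given in the sources used here, so their values are uncertain. Mef2a was most like Slc13a3 (0.889), Mylip (0.885) and Cflar (0.884). Cebpa was most like Sat1 (0.887), Hnrnpa1 (0.852) and the pseudogene Gm15621 (0.843), and Spi1 most like Isyna1 (0.85), Unc93b1 (0.812) and Evi2a (0.81). Runx1 was most like Etv6 (0.775), itself an ETS repressor, Ncf4 (0.733) and Slc15a4 (0.713). Mef2c was most like Map2k1 (0.801), Brd1 (0.787) and Rad21 (0.781). Cebpb was most like Gm9308 (0.753), Nop53 (0.752) and AA465934 (0.746), and Bhlhe41 most like Ttc30a2 (0.738), Otub1 (0.717) and Cibar1 (0.706). The most opposite genes of the other factors were Rpl7-ps7 for Mef2a (-0.89), Nectin3 for Mef2c (-0.84), Firre for Cebpb (-0.82), Slc24a2 for Spi1 (-0.78), Gm18556 for Cebpa (-0.77), Stk26 for Runx1 (-0.73) and Gm18255 for Bhlhe41 (-0.72).

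Of 22 relatives and partners of the 9 factors counted, 18 were in the table. At 6 months 3 were called higher, 3 lower and the others neither way, where 19.1% of all genes were called higher and 14.9% lower, and their median log2 difference was 0.081. Runx2, a paralog best known from bone, measured 3.74 ± 0.116 (SD, n = 4) in WT and 5.48 ± 0.405 (SD, n = 4) in rTg4510 at 6 months, a difference of 1.74 (SE 0.169, FDR 4.26e-08) beside 0.23 for Runx1. It was called higher at each age. Bhlhe40 rose by 1.86 (SE 0.275, FDR 1.56e-05) from a WT mean of 4.54, while Bhlhe41 was not called. Maff, a small MAF protein that lacks an activation domain, rose by 1.35 (SE 0.367, FDR 0.00667) from a WT mean of 5.12. The WT means of Runx2, Bhlhe40 and Maff lay below the common median of 5.63.

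Cebpd, a C/EBP factor of the acute phase, fell by 0.89 (SE 0.112, FDR 1.93e-06) at 6 months, against the direction of Cebpa and Cebpb. It was lower at 4 and 8 months as well, by -0.99 and -0.95. Mafg (-0.52, FDR 0.0101) and Sall3 (-0.33, FDR 0.00347) were the other relatives called lower at 6 months. At the other ages the relatives gave 1 call higher and 0 lower at 2 months, 2 and 3 at 4 months and 6 and 1 at 8 months. All genes gave 4.76% higher and 1.27% lower at 2 months, 14.1% and 9.1% at 4 months and 16% and 9.78% at 8 months.

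**Figure D4:**
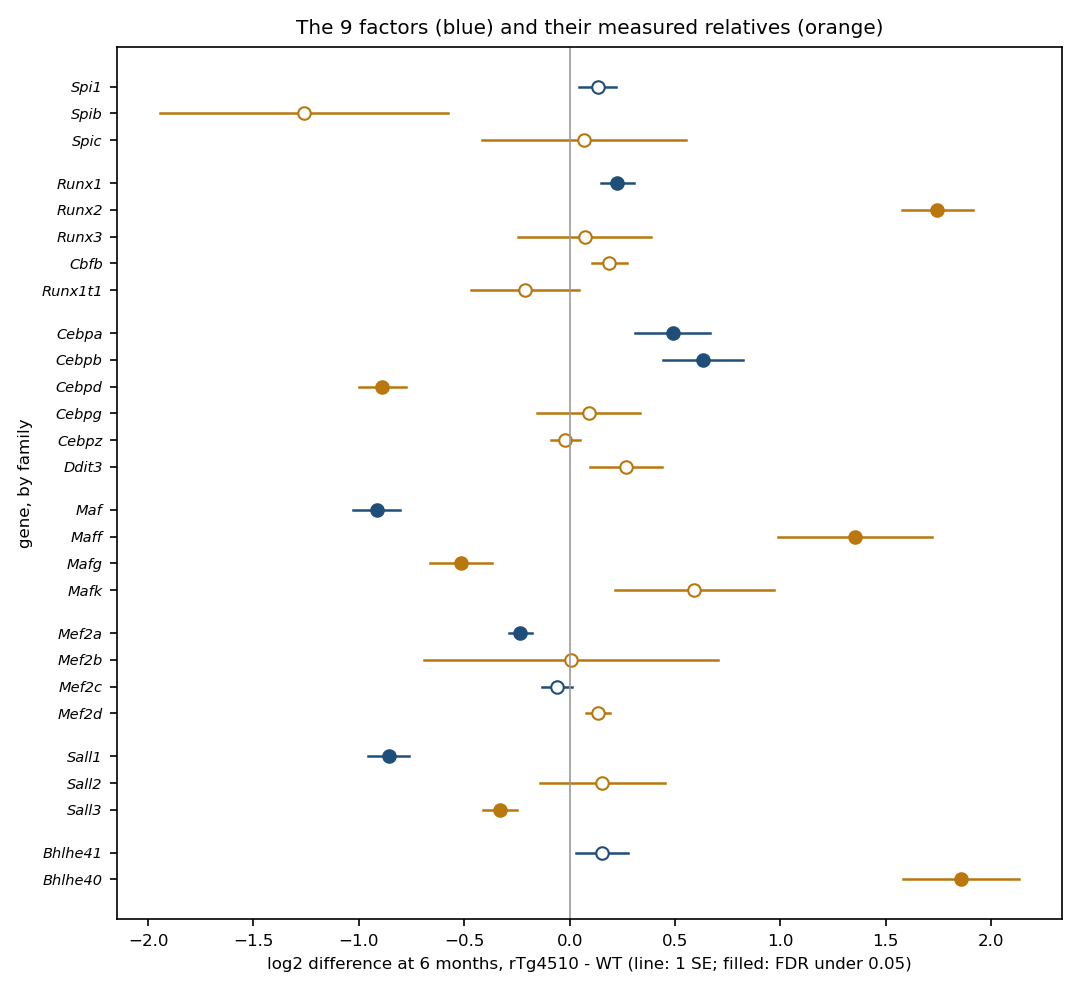
Log2 difference rTg4510 minus WT at 6 months (x axis) of the 9 factors (blue) and 18 of their relatives (orange), grouped by family (y axis). Lines are 1 SE and filled points passed an FDR of 0.05. Runx2 (1.74), Bhlhe40 (1.86) and Maff (1.35) lie far to the right of Runx1, Bhlhe41 and Maf, and Cebpd (-0.89) lies to the left of Cebpa and Cebpb.

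Among 32 other transcription factors of microglia and macrophages, 8 were called higher and 8 lower at 6 months, with a median of 0.077. Of all genes, 19.1% were called higher and 14.9% lower there. Those of the 32 beyond 1.5-fold were all higher. Nr4a1, an immediate early nuclear receptor, rose by 2.25 (FDR 7.29e-08), Egr3 by 1.41 (FDR 4.86e-05), Id2, an inhibitor of helix-loop-helix factors, by 1.30 (FDR 0.00623) and Egr2 by 1.02 (FDR 7.09e-05), and the other 2 were Prdm1 and Irf8. The lower ones stayed within 1.5-fold. The largest falls among them were those of Etv5 (-0.58, FDR 3.35e-05) and Tal1 (-0.52, FDR 0.0307). Smad3 (-0.41, FDR 0.00242), which carries TGF-beta signals, and Ikzf1 (-0.25, FDR 0.000291) were lower too. The counts higher and lower were 4 and 0 at 2 months, 5 and 10 at 4 months and 10 and 4 at 8 months. All genes gave 4.76% higher and 1.27% lower at 2 months, 14.1% and 9.1% at 4 months and 16% and 9.78% at 8 months.

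Genes known to depend on these factors were counted by list. At 6 months 19.1% of all genes were called higher and 14.9% lower. For the counts at the other ages, the shares of all genes are those given above with the 9 factors. Of 18 myeloid genes that depend on PU.1, 10 were higher and 4 lower at 6 months (median 0.29). Tyrobp, the signalling adaptor of TREM2, rose by 1.31 (FDR 6.28e-12), Csf2ra by 1.21 (FDR 1.22e-07), Cd14 by 1.21 (FDR 4.02e-07) and Cd68 by 1.12 (FDR 8.38e-10), while Spi1 itself was not called. Itgam, which encodes the CD11b antigen used to collect the cells, fell by 0.62 (FDR 8.7e-09). At 2, 4 and 8 months 5, 9 and 9 of the list were higher and 1, 3 and 4 lower.

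Of the 15 homeostatic microglia genes counted, several require SALL1. At 6 months 13 of the 15 were lower and 0 higher (median -0.57), beside 14.9% and 19.1% of all genes. The other 2, Csf1r (-0.13, FDR 0.0965) and Cst3 (0.063, FDR 0.503), did not pass the test. The largest falls were those of Ecscr (log2 difference -2.45, FDR 4.32e-13), the fructose transporter Slc2a5 (-2.11, FDR 2.71e-10), the purine receptor P2ry13 (-1.08, FDR 1.44e-08) and Selplg (-0.90, FDR 2.48e-08). The list had 7, 9 and 13 genes lower and 0, 0 and 0 higher at 2, 4 and 8 months.

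Of 12 inflammatory C/EBP target genes, 10 were in the table. At 6 months 4 were higher and 2 lower (median 0.14), beside 19.1% and 14.9% of all genes. Il1b rose by 2.41 (FDR 4.98e-08), Tnf by 2.07 (FDR 7.22e-05), the complement gene C3 by 1.58 (FDR 4.92e-09) and Ptgs2 by 1.36 (FDR 0.0059). Lcn2 (-2.08, FDR 0.00044) and Chil3 (-1.45, FDR 0.0254) fell. Both are abundant in neutrophils, whose marker list was lower in these libraries as given above. The part of neutrophils in these 2 falls was not tested. The list had 1, 5 and 4 genes higher and 0 lower at 2, 4 and 8 months.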

How the data were processed

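RNA of CD11b-isolated cells had been sequenced as 32 libraries. Per the study's methods, the authors discarded weakly covered exons (under 10 counts in over 80% of the samples), fitted a robust model over a gene's exons to get 1 signal, and deposited it on a log2 scale after median normalization. GRCm38 is named in the submitters' processing notes; the aligner and the handling of shared reads are not given in the sources used here. The deposited table holds no read totals, so no counting interval was computed, and the number of libraries limits the precision. The 4 libraries the authors excluded after QC were used only in the fits of all 32 libraries and as single values; 0 value columns were left unused. Of the Entrez numbers, 95.9% were found in RefSeq.

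Computed here, in R 4.3.3 with limma 3.58.1, statmod 1.5.0 and the package data.table of version 1.17.8, was a linear model of 8 group means with unmoderated variance (20 residual degrees of freedom), Benjamini-Hochberg adjusted per contrast over all genes; the thresholds were an FDR of 0.05 and, where stated, a fold of 1.5. The fit was run on simulated independent normal values with known shifts, a check of its arithmetic and not of its assumptions. The 9 factors and the gene lists were chosen with earlier results of these data known. Named were all 9 factors, the 3 most alike and the 1 most opposite gene of each, and up to 4 genes per list called beyond 1.5-fold at 6 months. Mafg, Sall3, Etv5, Tal1, Smad3, Ikzf1, Prdm1, Irf8, Itgam, Ptgs2, Chil3 and the paralog tests were chosen after the values were seen. Of the lists, 2 genes are not reported here, and all counts, medians and sums leave them out. The alternatives were moderated variance, a filter at the 25th percentile of mean signal, quantile normalization, centring on a trimmed mean, all 32 libraries, fits of single ages, a replicate block and leaving out each library. Same-numbered WT and rTg4510 libraries were taken as pairs where the deviations from the group means of all same-numbered pairs correlated above 0.1, which held at 6 months (r 0.131 to 0.153) and 8 months (0.15 to 0.291) but not at 2 months (0.0649 to 0.167) or 4 months (-0.0999 to 0.124). The main fit and the permutation tests did not use these pairs. The replicate block joined same-numbered libraries at each age, also at 2 and 4 months. Figures were drawn with matplotlib 3.10.9 in Python 3.11.15.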

Additional observations from a re-analysis of the deposited data

Results flagged for a closer look

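Among 36 groups of 4 libraries tested for a lone extreme value, 3 had one, where chance gives about 1 in 20: Runx1 in WT replicate 1 at 6 months (8.30), Cebpb in WT replicate 1 at 2 months (9.83) and Mef2c in rTg4510 replicate 4 at 2 months (9.74), each above the other libraries of its group.

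The genotype difference changed with age by the test of the difference itself for Mef2a from 2 to 4 months (-0.29, FDR 0.0327) and for Sall1 from 2 to 8 months (-0.53, FDR 0.0292).

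The libraries left out after QC held values above those of all 14 kept WT libraries. In rTg4510 replicate 3 at 4 months Cebpb was 12.79, Cebpa 14.10 and Bhlhe41 9.26, against highest WT values of 9.83, 13.87 and 7.73, while Sall1 was 7.84, below every kept library, and Maf 14.31. In rTg4510 replicate 4 at 8 months Spi1 was 10.05, Runx1 9.08 and Bhlhe41 8.11, against highest WT values of 9.83, 8.398 and 7.73. Both excluded WT libraries also exceeded the kept WT libraries in Spi1 (9.94 and 9.86), Runx1 (8.80 and 8.64) and Bhlhe41 (7.88 and 7.76).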

How the results depend on the processing

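The calls of Maf and Sall1 at 4 and 6 months, of Maf at 8 months and of Mef2a at 6 months held under each alternative run. Of 306 values of single factors under other settings than leaving out a library, 264 kept direction and side of the threshold, 22 lost a call, 14 gained one and 6 turned in direction: Spi1 at 4 and 6 months (-0.098 and -0.098) and Mef2c at 2 months (-0.092) under quantile normalization, Mef2c at 2 months (-0.012) under the trimmed mean, and Spi1 (-0.20) and Cebpa (0.17) at 4 months with all 32 libraries. None of these 6 was called either way. Quantile normalization also ended the calls of Runx1, Cebpa and Cebpb at 6 months (0.092, 0.060 and 0.44) and of Runx1 at 8 months (0.23). Under it the median difference at 6 months of the 3717 genes above the 80th percentile of mean signal, where the factors lie, went from 0.087 to -0.083. The all-gene median moved by less than 0.1 under each scaling. The cause of these changes was not tested.

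Of the counts of factors called, those that moved by over 1.5 times, or to or from 0, are given first. At 2 months 1 became 2 under quantile normalization, the trimmed mean and the replicate block, and 0 with all 32 libraries or the 2-month groups alone; beyond 1.5-fold, 0 became 1 under quantile normalization. At 6 months 6 became 3 with all 32 libraries. At 8 months 4 became 2, and 2 became 1 beyond 1.5-fold, with the 8-month groups alone. Within 1.5 times, 6 became 4 at 6 months under quantile normalization, the trimmed mean and the 6-month groups alone, and 3 became 2 beyond 1.5-fold under these and with all 32. At 4 months 3 became 4 under quantile normalization and 2 with the 4-month groups alone, and at 8 months 4 became 5 under moderated variance, the filter and the block and 3 with all 32. For the change of the difference from 2 to 4 months, 1 became 2 under moderated variance, the filter, the trimmed mean and the replicate block, and 0 with all 32 libraries; from 2 to 8 months, 1 became 2 under the block and 0 with all 32. From 2 to 8 months within WT 1 became 0, and within rTg4510 2 became 1, with all 32; within rTg4510, 2 became 3 from 2 to 4 months under quantile normalization and the trimmed mean, and from 2 to 8 months under quantile normalization. Leaving out 1 library gave 0 to 2 factors at 2 months, 3 to 4 at 4, 3 to 6 at 6 and 3 to 5 at 8 months, and 0, 2, 2 to 4 and 2 beyond 1.5-fold; 0 to 2 from 2 to 4 and 0 to 1 from 2 to 8 months for changes of the difference; 0 to 2 from 2 to 8 months in WT; and 2 to 3, 0 to 1 and 1 to 4 from 2 to 4, 4 to 6 and 2 to 8 months in rTg4510. Of single values, 4 turned in direction without 1 library and were called in no such fit: at 2 months Spi1 (-0.083 to 0.025) and Mef2c (-0.037 to 0.046), and at 4 months Runx1 (-0.22 to 0.0083) and Cebpa (-0.29 to 0.077).

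At 6 and 8 months, where the numbers pair the libraries, the block changed no call but that of Spi1. At 2 and 4 months the libraries share a number only, and 7 of 8 and 2 of 6 correlated best with their own number. There the block called Sall1 lower at 2 months (-0.29, FDR 0.00771), gave the widening of Sall1 from 2 to 4 months an FDR of 0.00534 and of Maf from 2 to 8 months 0.00392, and ended the call of the Mef2a change (FDR 0.0713).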
